A study of Mus musculus with 6 samples.

Results

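The genes described here encode the digestive machinery of the lysosome: cathepsin proteases, glycosidases, lipid hydrolases, the vacuolar proton pump (V-ATPase), lysosomal membrane proteins, and the MiT transcription factors (Mitf, Tfeb, Tfe3 and Tfec) with Gpnmb. They were chosen by name from the gene column of the count table, 53 symbols in all. A symbol was kept when its transcript rows summed to 30 or more reads over the 6 libraries, which 42 symbols did, out of 24454 symbols in the table. Just inside that limit were Glb1 with 30 reads and Tfeb with 40, and the highest symbol outside it was Ctsa with 14. All mice were wild-type C57BL6/J males of 6 to 8 weeks, and the RNA was polyA-enriched RNA of their peritoneal macrophages, phagocytes that live in the abdominal cavity, kept in primary culture. The 3 groups of 2 libraries were vehicle (5 h), LPS (the bacterial endotoxin lipopolysaccharide, 10 ng/ml, 4 h), and SGA360+LPS, in which the aryl hydrocarbon receptor ligand SGA360 was given at 10 µM for 1 h ahead of an identical LPS treatment. For the LPS group the labels name no vehicle step before LPS. Separate animals or cultures are not stated for the replicates either. Every p-value thus sets a difference between groups against the spread of these samples only, and that spread may be technical.

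Lysosomal hydrolases break down proteins, glycans and lipids in an acidic lumen, and the proton pump makes that lumen acidic. The pump has a membrane sector (V0) that carries protons and a cytosolic sector (V1) that hydrolyses ATP, and the sectors can come apart and rejoin. Many lysosomal genes share a promoter element, the CLEAR element built around an E-box, through which TFEB, TFE3 and MITF raise them together, and mTORC1 at the lysosome holds these factors in the cytoplasm. In macrophages the same machinery digests phagocytosed microbes and dying cells and trims antigens for MHC class II.

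The E-box CACGTG, which reads the same on both strands, was found in the promoters of 11 of the 35 kept members that have an entry in RefSeq's promoter sequences (build GRCm38.p6, 250 bases before to 50 after the start site). That is 31.4% of these members, against 8.09% of 27025 genes with a promoter in the same window. The 27025 were not limited to protein-coding genes, which the members all are. Since the element is known from lysosomal genes, a higher share among the members is no independent result. With a T in front (TCACGTG, on either strand, a subset of the E-boxes) the shares were 25.7% and 4.29%. Of the 11 members with an E-box, 7 fell with LPS, 1 rose, 2 were not called and 1 was not tested. Of the 24 without, 11 fell, 5 rose, 7 were not called and 1 was not tested. Over all genes tested, 17% were called lower and 19.4% higher. Whether calls differ with the motif was not tested. The 4 falling members shown (Ctsd, Gla, Atp6v1a and Mcoln1) are those with a T before and an A after an E-box. Ctsf, Ctsl and Lgmn also fell, have an E-box without that pair and are not shown. Lgmn has 2 promoter entries. Its stretch with the E-box (chr12:102439093-102439192, minus strand) lies inside the span of the counted transcript, not before its start. A stretch is shown for Atp6v0b too, the member with an E-box that rose. All stretches lie before the start site, with each E-box in capitals, and read 5′ to 3′ along the gene's strand.
Ctsd, chr7:142387873-142387972, minus strand: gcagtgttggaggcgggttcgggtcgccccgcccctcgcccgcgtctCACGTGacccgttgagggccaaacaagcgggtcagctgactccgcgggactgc
Gla, chrX:134601156-134601255, minus strand: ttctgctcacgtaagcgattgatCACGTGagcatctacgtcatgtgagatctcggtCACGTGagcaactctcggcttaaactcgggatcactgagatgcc
Atp6v1a, chr16:44139338-44139437, minus strand: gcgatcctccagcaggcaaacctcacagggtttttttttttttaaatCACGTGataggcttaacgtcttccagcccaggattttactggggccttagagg
Mcoln1, chr8:3500419-3500518, plus strand: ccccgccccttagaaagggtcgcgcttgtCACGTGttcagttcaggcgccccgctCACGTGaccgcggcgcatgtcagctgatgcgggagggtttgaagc
Atp6v0b, chr4:117887330-117887429, minus strand: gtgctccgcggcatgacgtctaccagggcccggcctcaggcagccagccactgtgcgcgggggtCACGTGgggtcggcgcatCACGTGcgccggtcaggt
The Gla, Mcoln1 and Atp6v0b stretches each hold a pair of E-boxes. A match describes these letters only, since binding of a factor was not measured, and members with and without the motif were called in both directions.

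Total counts ranged from 7726973 to 9529817 per library. The 42 members took 9.43% and 10.1% of all reads in the vehicle libraries, 6.87% and 7.29% with LPS, and 7.21% and 7.50% with SGA360+LPS. Ctsd had the highest mean level of all genes in CPM (counts scaled by a common factor to the TMM-scaled library size), Ctsb ranked 4, Gpnmb 7 and Ctsl 11. Vehicle replicate 1 differed from the other 5 libraries, with 10001 genes that had a read against 12282 to 12643, and 4.92% of reads on the ribosomal RNA gene Rn45s against 0.22% to 0.684%. Macrophage marker genes summed to between 21811 and 27178 CPM in every library (13 genes, with Itgam listed at 0), most of it from the lysozyme gene Lyz2. Of the 12 tested, 5 were called lower and 4 higher with LPS: Mertk went from 98.9 and 104 CPM in vehicle to 23.2 and 23.0 CPM with LPS and Fcgr1 from 100.02 and 90.9 CPM to 17.7 and 18.7 CPM, while Adgre1 went from 487 and 543 CPM to 1219 and 1316 CPM. Symbols with several transcript rows often had almost no reads: 10 of the 11 members left out were such symbols, among them Ctss, Lamp1, Cd63, Lipa, Gaa, Ctsh, Atp6v0a1, Atp6v1h, Ctsa and Tfe3, and only Atp6v0c had 1 row. Nothing is said on the expression of these genes. The kept members Psap, Mitf, Tfeb and Glb1 also have several rows and few reads, so their values are uncertain. Ctsc (2 rows) and Lamp2 (3 rows) have more reads, but these too may cover only part of the gene's reads.

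LPS libraries were first set against vehicle, that is, LPS without SGA360. With 5 h of vehicle and 4 h of LPS, and no vehicle step named before LPS, LPS and such handling cannot be told apart. Of the 40 members with enough reads to be tested, 24 fell, 6 rose and 10 were not called by edgeR's quasi-likelihood test at a Benjamini-Hochberg adjusted p under 0.05 over 9389 genes. Over all genes tested, 17% were called lower and 19.4% higher. Among genes of 100 CPM or more, where most members lie, the shares were 17.6% lower and 40.4% higher, against 22 lower and 5 higher of the 35 members at that level. The median log2 fold change was −0.30 over the members and −0.01 over all genes tested, and at 100 CPM or more it was −0.29 for members and 0.13 for all genes. Most falls were modest: summed over the 42 members, the level went from 92294 ± 1088 CPM to 73261 ± 3811 CPM (SD, n = 2), a ratio of 0.79. The LPS libraries did not overlap with vehicle for 29 members on the lower side and 9 on the higher side, against 32.7% and 33.1% of all genes. Gaps between SGA360+LPS and LPS were common too, with 1869 of 9389 genes on the higher side and 1837 on the lower side. In bulk RNA, fewer cells of a type and less RNA of a gene per cell cannot be told apart.

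The number of calls moved with the scaling and with single libraries. With upper-quartile scaling the median of all genes moved to −0.10 and that of the members to −0.39, and the calls over all genes went from 1820 higher and 1593 lower to 1460 and 1983, while the members counted 5 higher and 28 lower. Without LPS replicate 1 the members counted 15 lower. The 20 members that kept their call under all 17 alternatives tried were Ctsb, Ctsc, Ctsd, Ctsz, Lgmn, Atp6v0b, Atp6v0d2, Atp6v1a, Atp6v1b2, Atp6v1c1, Atp6v1e1, Gla, Hexa, Gusb, Asah1, Ppt1, Npc1, Grn, Tfec and Gpnmb. Of these, 15 fell and 5 rose.

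**Figure D1:**
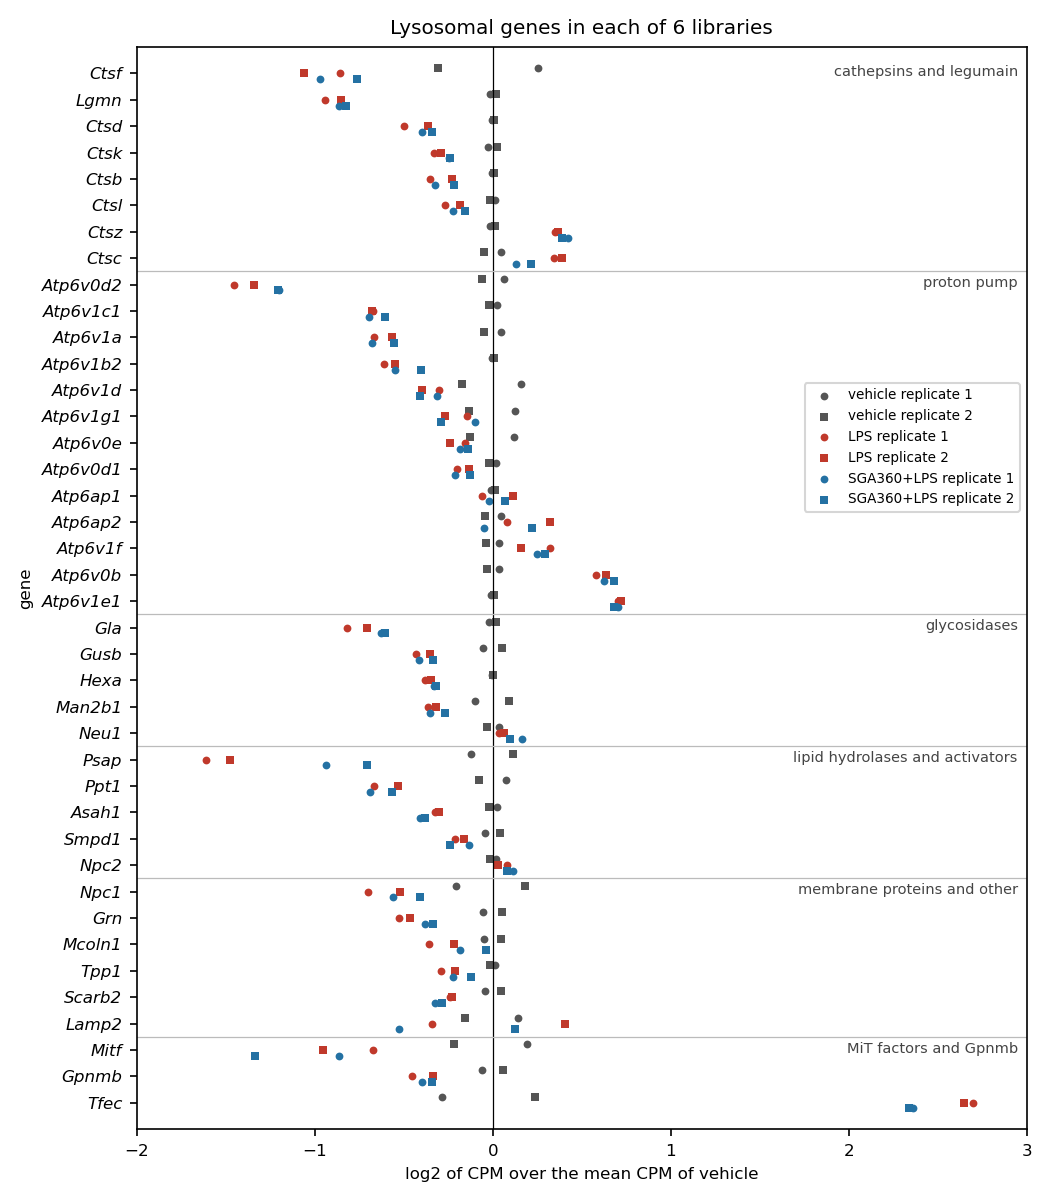
Level of each tested member in each of the 6 libraries, as log2 of its CPM over the mean CPM of vehicle, ordered within each class by the LPS change (circles, replicate 1; squares, replicate 2). Most LPS and SGA360+LPS points lie left of 0, Tfec lies far to the right in all 4 of those libraries, and the replicates of Lamp2 lie on both sides.

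All 8 tested cathepsin and legumain genes passed the test with LPS: 6 fell and 2 rose (median log2 fold change −0.30). These counts stand beside 17% lower and 19.4% higher over all genes. Ctsd, which encodes the aspartic protease cathepsin D, stood at 29171 and 29430 CPM in vehicle, 20703 and 22790 CPM with LPS, and 22228 and 23104 CPM with SGA360+LPS. Both vehicle libraries were above the other 4. Its log2 fold change with LPS was −0.43 (SE 0.06, adjusted p = 0.000187). Ctsb, the cysteine protease cathepsin B, was at 22287 and 22467 CPM in vehicle against 17489 and 19084 CPM with LPS and 17894 and 19242 CPM with SGA360+LPS, again with vehicle above the rest (log2 fold change −0.29, SE 0.06, adjusted p = 0.00329). Together with Ctsl and Gpnmb these genes took 7.04% and 7.54% of all reads in vehicle, and 4.99% and 5.37% with LPS.

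Lgmn encodes legumain, the asparaginyl endopeptidase that also processes other lysosomal proteases. It was at 2264 and 2318 CPM in vehicle, 1194 and 1270 CPM with LPS, and 1257 and 1294 CPM with SGA360+LPS. Both groups with LPS overlapped and lay far below vehicle, at a fitted fold of 0.538 for LPS (log2 −0.90, SE 0.06, adjusted p = 1.48e-06). Ctsf, a cysteine protease known for trimming the MHC class II invariant chain, was scarce, at 9.50 and 6.45 CPM in vehicle and 4.39 and 3.83 CPM with LPS, then 4.06 and 4.70 CPM with SGA360+LPS. Its fall of −0.96 (SE 0.33, adjusted p = 0.0438) was lost under 9 alternatives, among them DESeq2 (adjusted p = 0.123) and the loss of any 1 library other than vehicle replicate 2 (0.0831 to 0.251). Ctsk, the collagen-degrading cathepsin, and Ctsl, an endopeptidase, fell by 0.31 and 0.22 on the log2 scale (SE 0.08 and 0.06). Ctsl was not called without LPS replicate 1 (adjusted p = 0.149), and Ctsk was called neither without LPS replicate 1 (0.115) nor without LPS replicate 2 (0.0777).

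A pair of cathepsin genes moved the other way. Ctsz, a carboxypeptidase also called cathepsin X, was at 1968 and 2008 CPM in vehicle, 2530 and 2563 CPM with LPS, and 2669 and 2605 CPM with SGA360+LPS, so that both vehicle libraries were the lowest (log2 0.36, SE 0.06, adjusted p = 0.000654). Ctsc, a dipeptidyl peptidase that activates the serine proteases of granules, was at 367 and 344 CPM in vehicle, 452 and 466 CPM with LPS and 390 and 412 CPM with SGA360+LPS. On the reads listed for its 2 rows it rose by 0.37 with LPS (SE 0.07, adjusted p = 0.00176), and the SGA360+LPS libraries lay between the other groups without overlap. The shorter of its transcript rows, NM_001311790, held 5.69% and 5.87% of the gene's reads in vehicle (95% Wilson intervals 4.95% to 6.53% and 5.12% to 6.73%), 11.0% and 11.8% with LPS, and 9.29% and 8.45% with SGA360+LPS. That share was lowest in both vehicle libraries and is given without a test, since the sources used here do not say how reads shared by transcripts were assigned. Such intervals cover counting error only, as reads counted without molecular identifiers need not be independent molecules.

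Per kilobase of transcript, the scale on which genes can be set against each other, Ctsd led the members in vehicle with 14926 CPM per kb, followed by Ctsb with 4708, Gpnmb with 3315, Grn with 1591, Ctsz with 1375, Ctsl with 1333 and Lgmn with 1214. With LPS, Ctsz stood at 1761 CPM per kb, above Ctsl at 1141 and Lgmn at 652. Ctsz and Ctsl were thus near each other in vehicle, and Ctsz was the higher one with LPS.

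**Figure D2:**
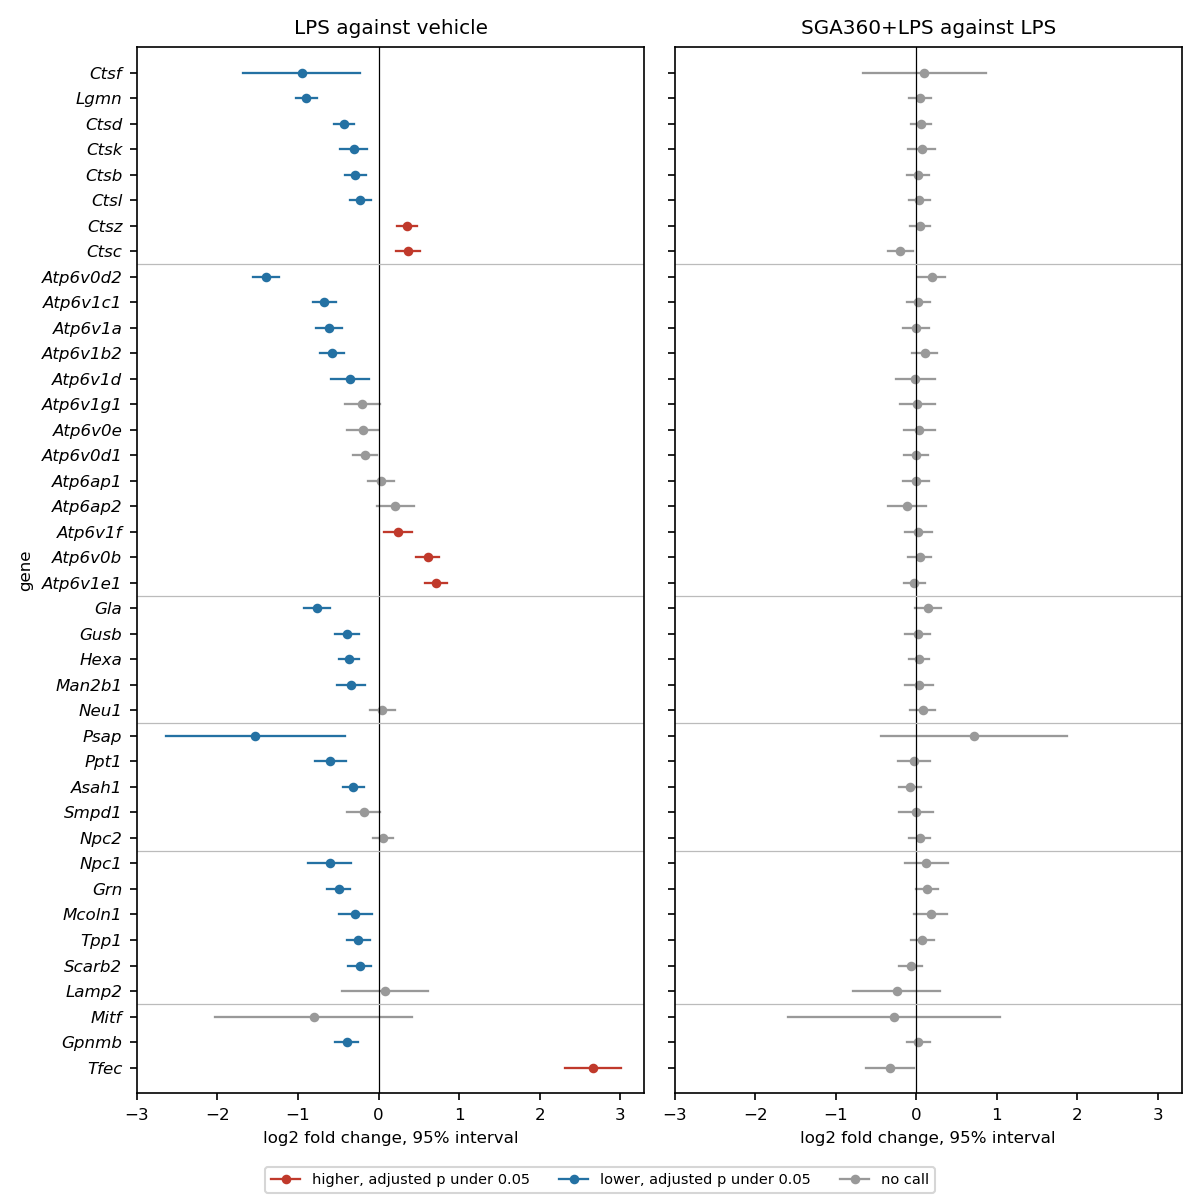
Log2 fold change of each tested member with its 95% interval, for LPS against vehicle on the left and for SGA360+LPS against LPS on the right (red, called higher; blue, called lower; grey, not called). On the left 24 members are blue and 6 are red, and on the right all 40 are grey.

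Subunits of the proton pump did not move as a unit with LPS. Of 13 tested, 5 fell, 3 rose and 5 were not called (median −0.20). Over all genes, 17% were called lower and 19.4% higher, and at 100 CPM or more 17.6% and 40.4%. In the V0 sector 1 of 4 fell and 1 rose, in the V1 sector 4 of 7 fell and 2 rose, and neither accessory subunit was called. With upper-quartile scaling 2 subunits rose and 8 fell: the rise of Atp6v1f was lost (adjusted p = 0.171), and Atp6v0d1 (0.0114), Atp6v0e (0.0316) and Atp6v1g1 (0.0495) were called lower. The largest fall among members of 5 CPM or more was that of Atp6v0d2, the d2 isoform of the V0 stalk subunit d, best known from osteoclasts and kidney. It was at 589 and 541 CPM in vehicle, 206 and 223 CPM with LPS, and 245 and 245 CPM with SGA360+LPS, with all 4 LPS-treated libraries far below vehicle. Its log2 fold change was −1.40 (SE 0.07, adjusted p = 2.1e-07), a fold of 0.38. The widely expressed isoform of the same subunit, Atp6v0d1, had 407 and 396 CPM in vehicle and 349 and 365 CPM with LPS (−0.17, 95% interval −0.31 to −0.02, adjusted p = 0.0723, not called, but called lower among genes with a mean of 5 CPM or more at 0.0365). Per kilobase, the ratio of Atp6v0d2 to Atp6v0d1 was 0.938 and 0.885 in the vehicle libraries, 0.381 and 0.395 with LPS, and 0.458 and 0.432 with SGA360+LPS. In vehicle the isoforms were thus at similar levels, and in all 4 LPS-treated libraries Atp6v0d2 was the lower one. The 8 osteoclast markers summed to 53.4 to 56.7 CPM in vehicle, 222 to 225 CPM with LPS and 189 to 222 CPM with SGA360+LPS. Of the 2 tested, Mmp9, which macrophages also express, rose from 34.0 and 32.7 CPM to 217 and 213 CPM with LPS, and Itgb3 fell from 19.0 and 24.0 CPM to 7.45 and 8.20 CPM (log2 fold change −1.46, SE 0.20). Calcr, Dcstamp, Oscar and Nfatc1 were listed at 0 and Acp5 reached at most 0.67 CPM, though a 0 in this table can also stand for a gene that these cells use. The part of such cells in the fall of Atp6v0d2 was not tested.

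The V1 subunits A and B, which form the ATP-binding ring, both fell, as did subunit C. Atp6v1a, the catalytic subunit A, was at 994 and 932 CPM in vehicle, 606 and 651 CPM with LPS, and 602 and 655 CPM with SGA360+LPS (log2 fold change −0.62, SE 0.07, adjusted p = 8.4e-05). Atp6v1b2, subunit B, went from 1116 and 1123 CPM to 734 and 763 CPM, with 764 and 845 CPM under SGA360+LPS (−0.58, SE 0.07, adjusted p = 8.47e-05). Atp6v1c1, subunit C, which ties the sectors together and takes part in their assembly, had 499 and 483 CPM in vehicle, 308 and 307 CPM with LPS, and 303 and 323 CPM with SGA360+LPS (log2 fold change −0.68, SE 0.06, adjusted p = 2.01e-05). For each of these genes both vehicle libraries were above the 4 others. Atp6v1d, a subunit of the central rotor, fell by 0.35 (SE 0.11, adjusted p = 0.0263). Its vehicle libraries differed, at 231 and 184 CPM, and without vehicle replicate 1 the log2 fold change was −0.16 and not called (adjusted p = 0.137). The loss of any 1 library of the other groups ended the call too (0.0585 to 0.192).

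Other pump subunits rose. Atp6v1e1, subunit E of the outer stalk, was at 386 and 391 CPM in vehicle, 634 and 639 CPM with LPS, and 632 and 622 CPM with SGA360+LPS, with vehicle the lowest (log2 0.71, SE 0.06, adjusted p = 7.02e-06). Its partner in that stalk, Atp6v1g1 (subunit G), stood at 539 and 449 CPM in vehicle and 448 and 410 CPM with LPS and was not called (−0.20, 95% interval −0.42 to 0.01, adjusted p = 0.134). Without vehicle replicate 2, however, Atp6v1g1 was called lower (−0.31, adjusted p = 0.00568), and likewise with the replicate number as a block (−0.20, 0.026). Atp6v0b, a subunit of the proton-carrying ring, was at 432 and 412 CPM in vehicle, 632 and 656 CPM with LPS, and 650 and 677 CPM with SGA360+LPS (log2 fold change 0.61, SE 0.06, adjusted p = 3.7e-05). Its groups with LPS overlapped with each other and lay above vehicle. Atp6v1f, a small rotor subunit, rose by 0.24 (SE 0.08, adjusted p = 0.0323), and it was not called without LPS replicate 1 (adjusted p = 0.222) or without either SGA360+LPS library (0.0526 and 0.0529). The ring-associated Atp6v0e and the accessory subunits Atp6ap1 and Atp6ap2 had log2 fold changes of −0.20, 0.03 and 0.21 with adjusted p-values of 0.0994, 0.799 and 0.151. Without vehicle replicate 2 Atp6v0e was called lower (−0.30, adjusted p = 0.00341), and with no filter on low counts Atp6ap2 was called higher (0.23, 0.0175). The interval of Atp6ap1 ran from −0.14 to 0.19, and that of Atp6ap2 from −0.02 to 0.44. Per kilobase, the pump subunits in vehicle ranged from 112 CPM per kb for Atp6ap2 to 451 CPM per kb for Atp6v1g1, and with LPS from 85.5 for Atp6v0d2 to 641 for Atp6v0b.

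**Figure D3:**
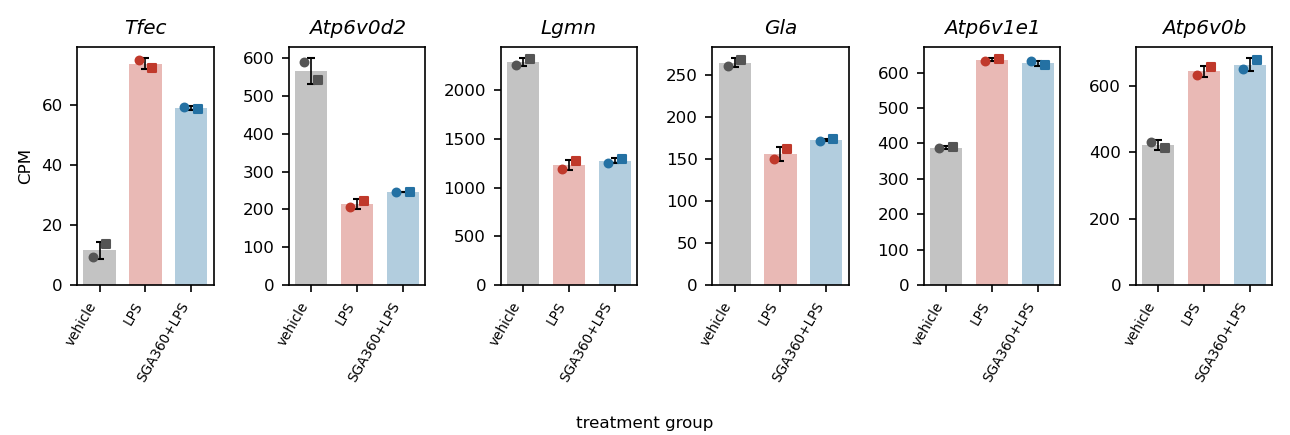
CPM of Tfec, Atp6v0d2, Lgmn, Gla, Atp6v1e1 and Atp6v0b in each library (points) with the mean (bar) and SD (line) of each group, n = 2, each panel on its own scale from 0. Tfec, Atp6v1e1 and Atp6v0b are above vehicle in all 4 LPS-treated libraries, and Atp6v0d2, Lgmn and Gla are below it.

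Of the glycosidases, 4 of 5 tested fell with LPS and none rose in this fit (median −0.36), beside 17% and 19.4% of all genes. Gla, alpha-galactosidase A, the enzyme lost in Fabry disease, was at 261 and 268 CPM in vehicle, 150 and 162 CPM with LPS, and 172 and 174 CPM with SGA360+LPS. Its log2 fold change of −0.76 (SE 0.07, adjusted p = 1.77e-05) was the largest of the class. Hexa, the alpha subunit of beta-hexosaminidase, had 1894 and 1900 CPM in vehicle, 1457 and 1490 CPM with LPS, and 1509 and 1519 CPM with SGA360+LPS, with no overlap between any of the groups (−0.36, SE 0.06, adjusted p = 0.000599). Gusb, beta-glucuronidase, stood at 858 and 923 CPM in vehicle and at 660 and 698 CPM with LPS, then 669 and 704 CPM with SGA360+LPS (log2 fold change −0.39, SE 0.07, adjusted p = 0.00122). Man2b1, the lysosomal alpha-mannosidase, fell by 0.34 (SE 0.08, adjusted p = 0.00568) and was not called without LPS replicate 1 (adjusted p = 0.0683), while without vehicle replicate 2 the value was −0.23 (called at 0.0148). Neu1, the lysosomal sialidase, was at 202 and 192 CPM in vehicle and 202 and 206 CPM with LPS, and was not called (0.05, 95% interval −0.11 to 0.20, adjusted p = 0.632). Glb1, beta-galactosidase, was not tested, with 0 and 0.832 CPM in vehicle and at most 0.931 CPM elsewhere.

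Among the genes for lipid breakdown, 3 of 5 tested fell and none rose in this fit (median −0.31). All genes showed 17% lower and 19.4% higher. Ppt1, which removes palmitate from proteins, was at 216 and 195 CPM in vehicle, 129 and 142 CPM with LPS, and 127 and 139 CPM with SGA360+LPS (log2 fold change of −0.60, SE 0.09, adjusted p = 0.000428). Asah1, acid ceramidase, stood at 576 and 559 CPM in vehicle, 453 and 461 CPM with LPS and 428 and 436 CPM with SGA360+LPS (log2 fold change −0.31, SE 0.06, adjusted p = 0.0024), so that each group lay apart. Psap, the precursor of the saposins that present lipids to hydrolases, has 6 transcript rows, of which 5 held at most 1 read in any library. On these few reads it was at 3.35 and 3.95 CPM in vehicle, 1.20 and 1.31 CPM with LPS, and 1.90 and 2.24 CPM with SGA360+LPS. The fall of −1.53 (SE 0.50, adjusted p = 0.0354) was not called with DESeq2 (0.0964), without a filter on low counts (0.0528), or without any 1 of the LPS or SGA360+LPS libraries (0.110 to 0.235). Npc2, the soluble carrier of cholesterol, was the most abundant of the class, at 1563 and 1526 CPM in vehicle, 1632 and 1578 CPM with LPS and 1674 and 1632 CPM with SGA360+LPS, and was not called (0.06, 95% interval −0.07 to 0.18). Smpd1, acid sphingomyelinase, had 75.0 and 79.5 CPM in vehicle and 66.8 and 69.0 CPM with LPS (−0.19, adjusted p = 0.154, not called, but called lower with upper-quartile scaling at 0.0408). Npc2 hands cholesterol to the membrane protein Npc1, which was called.

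Of the membrane proteins and the remaining soluble proteins, 5 of 6 tested fell with LPS (median −0.27), beside 17% of all genes. Npc1, the cholesterol exporter of the lysosomal membrane, was at 356 and 467 CPM in vehicle, 253 and 287 CPM with LPS, and 279 and 310 CPM with SGA360+LPS (log2 fold change of −0.61, SE 0.12, adjusted p = 0.00294). Vehicle lay above the other groups, though its libraries differed from each other by more than the LPS libraries did. The log2 fold change was −0.38 without vehicle replicate 2 and −0.77 without vehicle replicate 1, called in both cases (adjusted p = 0.00169 and 2.34e-06). Grn, progranulin, which is cleaved into granulins in the lysosome, had 3595 and 3869 CPM in vehicle, 2588 and 2704 CPM with LPS, and 2860 and 2951 CPM with SGA360+LPS, 3 levels without overlap (−0.50 with LPS, SE 0.06, adjusted p = 0.000137). Mcoln1, the calcium-permeable channel TRPML1, was at 121 and 130 CPM in vehicle, 97.8 and 108 CPM with LPS, and 110 and 122 CPM with SGA360+LPS. The SGA360+LPS libraries of Mcoln1 overlapped with vehicle, and its fall with LPS of −0.29 (SE 0.09, adjusted p = 0.0331) was not called with DESeq2 (0.0638) or without any 1 of 5 libraries, vehicle replicate 1 being the exception (0.0578 to 0.306). Tpp1, a tripeptidyl peptidase, and Scarb2, the sorting receptor of glucocerebrosidase, fell by 0.25 and 0.23 (SE 0.07 and 0.06). Tpp1 was not called without LPS replicate 1 (adjusted p = 0.167) or LPS replicate 2 (0.0509), and Scarb2 not without any 1 library other than vehicle replicate 1 (0.0504 to 0.140).

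Lamp2, a main glycoprotein of the lysosomal membrane, varied more between replicates than between groups, with 247 and 202 CPM in vehicle, 177 and 297 CPM with LPS, and 156 and 244 CPM with SGA360+LPS. It was not called (0.08, 95% interval −0.45 to 0.61, adjusted p = 0.819), and without LPS replicate 2 the log2 fold change was −0.32. The spread lay in 1 of its 3 transcript rows, NM_010685, with 1155 reads in LPS replicate 1 and 2480 in LPS replicate 2, and 1083 and 1988 reads in the SGA360+LPS replicates. The row NM_001017959 held 12.5% and 12.1% of the gene's reads in vehicle, 12.998% and 8.47% with LPS, and 11.1% and 8.30% with SGA360+LPS, so the LPS replicates lay on both sides of vehicle.

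Of the transcription factors of the MiT family, Tfec had the largest change of all members. Tfec, a macrophage member of the family, was at 9.50 and 13.6 CPM in vehicle, 75.0 and 72.5 CPM with LPS, and 59.4 and 58.6 CPM with SGA360+LPS. All 4 LPS-treated libraries were far above vehicle, a rise of 2.67 on the log2 scale with LPS (SE 0.15, adjusted p = 4.5e-07), or 6.35-fold. Mitf, which has 3 transcript rows, was at 2.91 and 2.19 CPM in vehicle and 1.60 and 1.31 CPM with LPS, and was not called (−0.81, 95% interval −2.03 to 0.42, adjusted p = 0.289). Tfeb lay at 0.782 and 1.25 CPM in vehicle, 0.931 and 0.547 CPM with LPS and 0.254 and 0.784 CPM with SGA360+LPS, too low for the test. Tfe3 had 2 reads in all. With so few reads on symbols of several rows, levels of these 3 factors cannot be set against that of Tfec.

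Gpnmb, a glycoprotein of lysosomes and melanosomes known as a target of the MiT factors, was the third most abundant member, at 12124 and 13130 CPM in vehicle, 9207 and 9992 CPM with LPS, and 9585 and 9964 CPM with SGA360+LPS. It fell by 0.40 on the log2 scale (SE 0.06, adjusted p = 0.000729), and its groups with LPS overlapped.

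Summed levels show how the classes compare. With LPS the sum fell to 0.79 of vehicle for the cathepsins and legumain, 0.78 for glycosidases, 0.75 for membrane and other proteins, 0.77 for the MiT factors with Gpnmb (nearly all Gpnmb), 0.86 for the pump and 0.94 for lipid hydrolases, where Npc2 outweighed the rest. In each class both LPS libraries lay below both vehicle libraries. These ratios carry no test of their own, and whether the classes differ from each other was not tested. Under upper-quartile scaling the ratios were lower, as given in the closing section.

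**Figure D4:**
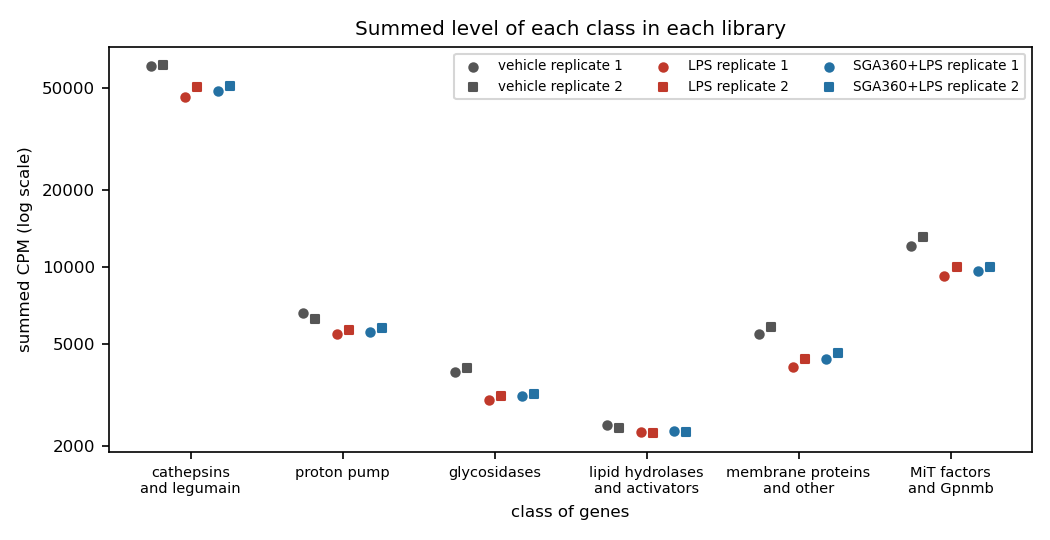
Summed CPM of the kept members of each class in each library, on a log axis (circles, replicate 1; squares, replicate 2). In every class the vehicle points are above the LPS points, and the LPS and SGA360+LPS points lie close together.

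Marker genes of other cells were summed as well, and their calls stand beside 17% lower and 19.4% higher over all genes tested with LPS. The 9 mesothelial markers in the table summed to 510 to 540 CPM in vehicle, 368 to 370 CPM with LPS and 360 to 379 CPM with SGA360+LPS, with 3 of 9 tested called lower and none of the 9 at 0. Fibroblast markers summed to 4687 to 5382 CPM in vehicle, 4421 to 4729 CPM with LPS and 4742 to 5211 CPM with SGA360+LPS, with 1 of 7 tested called lower, and Pdgfrb and Postn at 0. The vehicle and LPS sums of the fibroblast markers overlapped, and nearly all of the fibroblast sum came from Col1a1, Col1a2 and Col3a1. T and NK cell markers summed to 221 to 253 CPM in vehicle and 88.3 to 95.7 CPM with LPS, almost all from Il7r, with Lck and Klrb1c at 0 and no other marker above 3.02 CPM. In every library B cell markers summed to at most 44.9 CPM, neutrophil markers to at most 32.6 CPM and mast cell markers to at most 100.03 CPM. The part of these cells in the falls of the lysosomal genes was not tested.

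Other genes of the lysosomal pathway were counted by list, beside 17% called lower and 19.4% called higher over all genes tested. Of 40 further lysosomal hydrolases tested, 24 fell and 2 rose with LPS (median −0.48). Arsg, an arylsulfatase, was at 31.3 and 28.0 CPM in vehicle and 2.66 and 3.06 CPM with LPS (log2 −3.36, SE 0.26). It has 2 transcript rows, so these may cover only part of the gene's reads. Hyal1, a hyaluronidase, and Sgsh, the heparan sulfatase sulfamidase, fell by 2.78 and 2.68 (SE 0.27 and 0.15). Of 33 further membrane proteins and transporters, 17 fell and 4 rose (median −0.42). Slc46a3, a lysosomal transporter, went from 28.8 and 38.2 CPM to 1.86 and 1.09 CPM, a log2 fold change of −4.52 (SE 0.29), while Slc15a3, a transporter of peptides and histidine, rose by 1.63 (SE 0.07) and the intramembrane protease gene Sppl2a by 1.48 (SE 0.09). These lists held larger changes than any falling member in the 6 classes.

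Of 13 further pump subunits and lysosomal ion channels tested, 4 fell and 2 rose (median −0.45), against 17% and 19.4% of all genes. Tpcn1, a channel of endosomes and lysosomes, was at 119 and 118 CPM in vehicle and 29.9 and 31.1 CPM with LPS (−1.96, SE 0.10). The cation channel gene Trpm2 fell by 1.18 (SE 0.16), and Clcn6, a chloride and proton exchanger of late endosomes, rose by 0.70 (SE 0.12). Of 5 tested inhibitors of cysteine proteases none fell and 2 rose (median 0.29): Cst7, cystatin F, with 1.79 and 2.81 CPM in vehicle and 13.6 and 13.4 CPM with LPS (2.54, SE 0.27), and Cstb, cystatin B (0.29, SE 0.08). Cystatin F is an inhibitor that enters lysosomes and acts there on cathepsin C.

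The lists in this paragraph stand beside 17% of all genes called lower and 19.4% called higher. For genes that sort proteins to the lysosome, 10 of 38 fell and 5 rose (median −0.06). Rab32, a small GTPase of lysosome-related organelles, rose by 1.71 (SE 0.06), and Plekhm1, an adaptor for fusion with lysosomes, fell by 1.20 (SE 0.07), as did Ap1s2, an adaptor subunit, by 1.13 (SE 0.17). Of 29 regulators around mTORC1 and the MiT factors, 8 fell and 4 rose (median −0.12). Rragd, which encodes the GTPase RagD and is itself a target of the MiT factors, was at 46.7 and 53.1 CPM in vehicle and 18.0 and 15.2 CPM with LPS (−1.59, SE 0.15). Fnip2, a partner of folliculin, fell by 1.21 (SE 0.07), and the kinase gene Prkcd rose by 1.45 (SE 0.31). Of 32 autophagy genes 12 fell and 4 rose (median −0.08), with Calcoco1 at −0.98 (SE 0.13) and the autophagy receptor Optn at 0.95 (SE 0.10). Plekhm1 is counted in the autophagy list as well as in the sorting list.

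**Figure D5:**
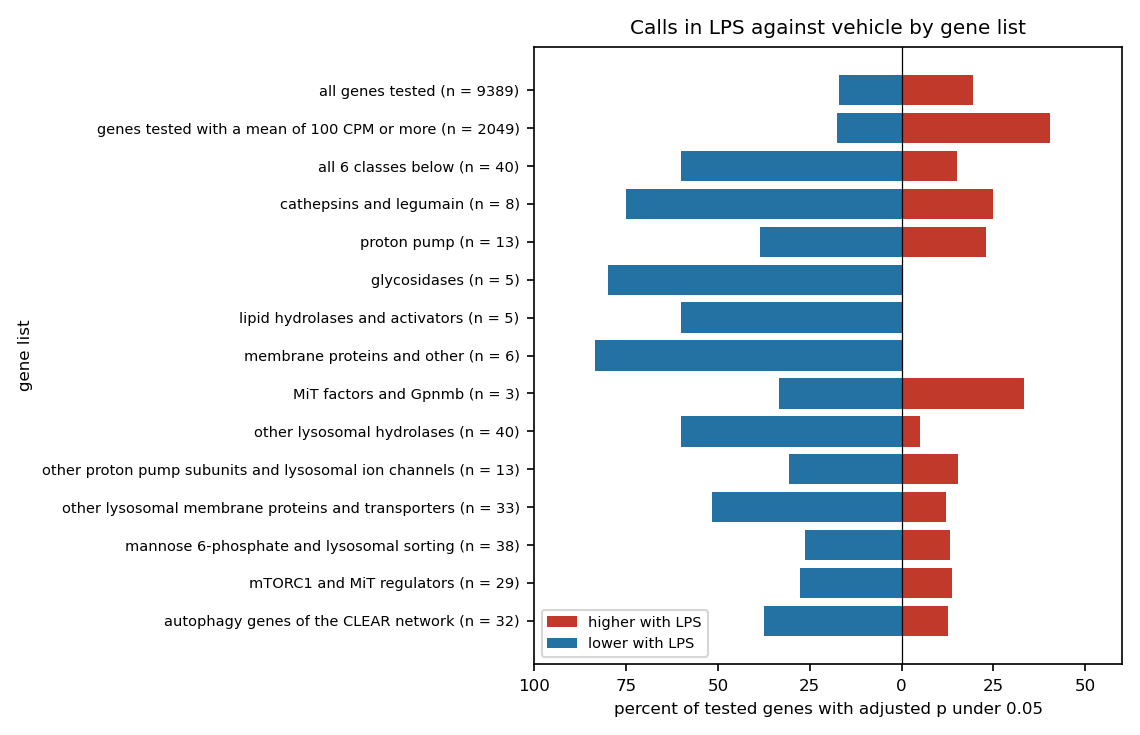
Percent of the tested genes of each list called higher (right, red) or lower (left, blue) with LPS against vehicle at an adjusted p under 0.05, with the number tested beside each name. All genes tested show 17% lower and 19.4% higher, and the bars of the 6 classes together and of the other lysosomal hydrolases reach further to the left.

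SGA360+LPS was next set against LPS. As the labels name no vehicle step for the LPS group, SGA360 and a pretreatment step as such cannot be told apart. That comparison shares the LPS libraries with the comparison above. None of the 40 members was called in either direction by edgeR, and all had an adjusted p of 1. Over all genes tested, 0% were called higher and 0.0746% lower. DESeq2 and limma-voom also called 0 members, as did every other alternative. The SGA360+LPS libraries lay wholly above LPS for 10 of 40 members, Grn and Hexa among them. They lay wholly below for 5, Ctsc and Asah1 among them. Over all 9389 genes these counts were 1869 and 1837, so no effect is read from such gaps. At an unadjusted p under 0.05 were 3 of 40 members, against 2.94% of all genes: Ctsc (log2 fold change −0.20, SE 0.07, 95% interval −0.34 to −0.05), Atp6v0d2 (0.19, SE 0.07, interval 0.03 to 0.36) and Tfec (−0.32, SE 0.13, interval −0.62 to −0.03).

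The intervals show how large a difference could be under a spread shared by all 3 groups. The mean chi-square between replicates, on total reads, was 43.73 for vehicle against 6.137 for LPS and 4.122 for SGA360+LPS. That mean includes Rn45s, which took 4.92% and 0.684% of reads in the vehicle replicates. A mean without Rn45s was not computed, so the gap need not hold for the members. Vehicle spread enters these intervals too, and the same shared spread serves the comparisons with vehicle. For 27 of 40 members the 95% interval lay within ±0.25 on the log2 scale, for 35 within ±0.5 and for 38 within ±1. Those not within ±0.5 were Ctsf (−0.66 to 0.86), Psap (−0.44 to 1.87), Lamp2 (−0.78 to 0.29), Tfec and Mitf (−1.59 to 1.04). For Ctsd the fold change was 0.06 (SE 0.06, interval −0.06 to 0.18), for Ctsb 0.02 (−0.11 to 0.15) and for Lgmn 0.05 (−0.08 to 0.19). Atp6v1a stood at −0.00 (−0.16 to 0.16) and Gla at 0.15 (−0.02 to 0.31). The summed level of all members was 75278 ± 2355 CPM with SGA360+LPS against 73261 ± 3811 CPM with LPS (SD, n = 2), a ratio of 1.03. Class ratios ran from 1.01 for lipid hydrolases to 1.06 for membrane and other proteins. An effect of SGA360 on these genes was thus not detected with 2 libraries a group, which does not show that the groups are alike. In the lists of other lysosomal, sorting, inhibitor, mTORC1 and autophagy genes, 0 genes were called.

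Against vehicle, the SGA360+LPS libraries showed 20 members lower and 5 higher, against 15.2% and 17.9% of all genes called lower and higher. The vehicle libraries are shared with the comparison of LPS alone. Tfec rose by 2.34 (SE 0.16, adjusted p = 1.33e-06), and Atp6v0d2 fell by 1.20 (SE 0.07, adjusted p = 6.44e-07). Lgmn fell by 0.85 (SE 0.06), Gla by 0.62 (SE 0.07) and Ctsd by 0.37 (SE 0.06), and Atp6v1e1 and Atp6v0b rose by 0.69 and 0.65 (SE 0.06 for both). Called with LPS alone but not here were Ctsc (0.17, adjusted p = 0.0737), Ctsf (−0.86, 0.0687), Psap (−0.81, 0.22), Mcoln1 (−0.11, 0.407) and Tpp1 (−0.17, 0.0676). Some alternatives did call them. Tpp1 was lower with upper-quartile scaling (adjusted p = 0.0115), the filter at a mean of 5 CPM (0.0367) and the replicate block (0.0417). Ctsf was lower with upper-quartile scaling (0.0496) and the 5 CPM filter (0.0476), and Ctsc higher with no filter (0.0423). The log2 fold change of Ctsc was 0.24 without vehicle replicate 1, and that of Ctsf −1.09 without vehicle replicate 2. For none of the 5 was the difference between SGA360+LPS and LPS called. Mitf was not called either (−1.08, and −1.26 without vehicle replicate 2). Without SGA360+LPS replicate 1 the members counted 13 lower. Npc1 fell by 0.48, with −0.25 without vehicle replicate 2 and no call without SGA360+LPS replicate 1 (adjusted p = 0.133).

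In the mm10 build, the transcripts whose changes stand out lie on several chromosomes. Tfec (NM_031198 in the deposited table) spans chr6:16833381-16898441 on the minus strand, and Atp6v0d2 (NM_175406) chr4:19876838-19922566 on the minus strand. Lgmn (NM_011175) spans chr12:102394098-102439697, Ctsd (NM_009983) chr7:142375916-142387870 and Gla (NM_013463) chrX:134588169-134601005, all on the minus strand, and Gpnmb (NM_053110) lies on the plus strand at chr6:49036518-49058182. GENCODE annotates all 42 kept members as protein-coding. The spans of 14 of them overlap another annotated gene, such as Ctsb with Fdft1, Ctsz with Nelfcd, Hexa with Tmem202, Atp6v1b2 with Slc18a1 and Ppt1 with Cap1. No source used here says if counting was stranded or how reads shared by overlapping genes were assigned. Reads of such neighbours may thus be counted for a member, or a member's own reads may be left out.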

How the data were processed

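A table of raw read counts was deposited by the authors, with a symbol, RefSeq transcript and position for each of 34751 transcripts. The submitters' processing notes name TopHat2 2.0.13, HTSeq 0.5.4p3 and mm10. Neither strand setting nor annotation version is known from the sources used here. Table columns were matched to samples by the labels. Rows were summed per symbol. Low genes were removed by filterByExpr (minimum count 10), and the rest were TMM-scaled and tested with the quasi-likelihood test of edgeR 4.0.16 in 1 model of 3 groups over 6 libraries (3 residual degrees of freedom, R 4.3.3), with Benjamini-Hochberg adjustment over all 9389 genes and a threshold of 0.05. SE was computed as |log2 fold change| / √F, and CPM on TMM-scaled sizes. Alternatives were DESeq2 1.42.0, limma-voom (limma 3.58.1), other scalings and filters, a replicate block, 2 groups only, a stricter threshold and each library left out. Scripts were tested on simulated data. Starts are given as the table's start plus 1. Promoters are from RefSeq (44 of 53 listed members matched).

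The members, their classes and the other gene lists were chosen with earlier results of these data known. Named with values in all libraries are up to 4 called members of each class with the largest change, the most abundant one, and the MiT factors with Gpnmb. From other lists up to 3 called genes of 5 CPM or more are named. Ctsb, Ctsz, Atp6v0b, Lamp2 and members named for not being called were added after their values were seen.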

Additional observations from a re-analysis of the deposited data

How the results depend on the processing

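Across the 17 alternatives per comparison, the number of members called higher stayed within 1.5 times of its main value, and so did the number called lower except in 2 cases. With 1 library left out in turn, members lower with LPS against vehicle ranged from 15 to 24 (15 without LPS replicate 1), and members lower with SGA360+LPS against vehicle from 13 to 24 (13 without SGA360+LPS replicate 1). In SGA360+LPS against LPS, 0 members were called under every alternative. Of the 25 members called in SGA360+LPS against vehicle, 17 kept their call throughout. Upper-quartile scaling moved the log2 ratio of summed levels with LPS to −0.43 for cathepsins and legumain, −0.30 for the pump, −0.46 for glycosidases, −0.17 for lipid hydrolases and −0.42 for all members, and it turned the sign of 4 members that were not called: Atp6ap1 (−0.062), Neu1 (−0.042), Npc2 (−0.035) and Lamp2 (−0.011). With 1 library left out, 2 of the 10 members not called in LPS against vehicle changed sign: Lamp2 ranged from −0.32 to 0.43 and Atp6ap1 from −0.047 to 0.14. In SGA360+LPS against LPS, 19 of 40 members changed sign that way and none was called, so no direction is read from these values. Their ranges were Ctsb −0.043 to 0.089, Ctsd −0.011 to 0.13, Ctsf −0.016 to 0.20, Ctsl −0.0093 to 0.080, Atp6v0d1 −0.048 to 0.043, Atp6v0e −0.0029 to 0.078, Atp6v1a −0.066 to 0.061, Atp6v1c1 −0.023 to 0.073, Atp6v1d −0.055 to 0.035, Atp6v1f −0.048 to 0.11, Atp6v1g1 −0.082 to 0.10, Atp6ap1 −0.093 to 0.090, Atp6ap2 −0.26 to 0.016, Gusb −0.026 to 0.061, Man2b1 −0.011 to 0.079, Smpd1 −0.051 to 0.048, Ppt1 −0.097 to 0.044, Lamp2 −0.61 to 0.18 and Gpnmb −0.035 to 0.089. There, upper-quartile scaling also turned Atp6v0d1 (0.0045), Atp6v1a (0.0051), Atp6ap1 (0.0020) and Smpd1 (0.0049), and the filter at a mean of 5 CPM turned Atp6v1a (0.00018). Over all genes, 3413 were called with LPS against vehicle, 2216 at a threshold of 0.01, 5494 without vehicle replicate 2, 2217 without LPS replicate 1 and 2091 without LPS replicate 2. With SGA360+LPS against LPS 7 were called, 17 with no filter, 12 with 2 groups only, 4 at 0.01, 15 and 16 without vehicle replicates 1 and 2, 3 without LPS replicate 1, and 0 without LPS replicate 2 or either SGA360+LPS replicate. With SGA360+LPS against vehicle 3107 were called, 2050 at 0.01, 5315 without vehicle replicate 2, and 1831 and 1872 without SGA360+LPS replicates 1 and 2. A lone library is assumed to vary like the other groups.

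The replicate numbers are shared between groups, but nothing in the labels says that they pair the samples. The correlation of replicate differences was −0.00366 for vehicle and LPS, 0.198 for LPS and SGA360+LPS and 0.0144 for vehicle and SGA360+LPS. With the replicate number as a block, 6 members were higher and 24 lower with LPS against vehicle, 0 were called in SGA360+LPS against LPS, and 5 were higher and 22 lower in SGA360+LPS against vehicle, with 3434, 5 and 3136 genes called. Depth limits what can be said of Ctsf, Psap, Mitf, Tfeb and Glb1, which lay below 10 CPM.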
